A study of Sus scrofa with 48 samples.

Results

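The genes examined here carry the names of proteasome subunits and of their activators, inhibitor and assembly chaperones in the blood of pigs selected on residual feed intake (RFI). They were chosen by name, as the array spots whose gene name starts with PSM, a letter from A to G and a number. The array held 115 such spots for 46 gene names, among 60306 non-control spots. The study retained 108 of them after its quality filter, out of 37113 retained spots, and these 108 spots covered 44 of 26924 distinct names. PSMC3IP, a recombination factor that shares only its name with the subunit PSMC3, matched by spelling and was kept apart, so that 43 genes of the proteasome were left. Genes that the array does not carry under such a name, such as PSMA1 and PSMA7, were not analysed here.

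The proteasome degrades proteins that have been tagged with ubiquitin. Its barrel-shaped 20S core holds the proteolytic sites on beta subunits, and a regulatory particle at its end recognizes, unfolds and feeds in the substrate. In cells exposed to interferon, and constitutively in many leukocytes, the catalytic subunits PSMB6, PSMB7 and PSMB5 are replaced by PSMB9, PSMB10 and PSMB8. This immunoproteasome, often capped by the PA28 activator made of PSME1 and PSME2, produces many of the peptides shown on MHC class I molecules.

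The samples were whole blood of 48 castrated male French Large White pigs aged 132 days, from lines selected divergently for RFI over several generations. RFI is the part of feed intake that growth and maintenance do not account for, so that low RFI pigs are the more efficient eaters. The 4 groups of 12 pigs were low RFI pigs on a low-fat, low-fiber diet (low RFI LF), low RFI pigs on a high-fat, high-fiber diet (low RFI HF), high RFI LF pigs and high RFI HF pigs, all fed ad libitum. The HF diet differed from the LF diet in fat, in fiber and in starch together, and these components cannot be told apart. Each pig had its own single-colour array of 60-base probes, and the 6 slides each held 2 arrays of every group. Values are log2 intensities centred on the median of the array, and a difference of lines is low RFI minus high RFI. Whole blood mixes red cells, platelets and leukocytes, so that fewer cells of a type and less RNA per cell cannot be told apart. Of the 108 retained spots, 106 were well above background on all 48 arrays, and no spot was saturated.

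The probes of PSMB8 are given first, because the line comparison of the immunoproteasome turns on them. Capitals mark the 37 bases that PSMB8-a and PSMB8-b have in common, so that these spots are not independent readings, whereas PSMB8-c lies elsewhere in the coding sequence.
PSMB8-a: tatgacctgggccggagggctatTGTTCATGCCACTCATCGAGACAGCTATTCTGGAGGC
PSMB8-b: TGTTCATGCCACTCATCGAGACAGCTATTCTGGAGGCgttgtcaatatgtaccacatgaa
PSMB8-c: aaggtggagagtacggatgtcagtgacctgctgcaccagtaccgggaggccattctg

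In the line comparison, most proteasome genes differed little, and PSMB8 and the inhibitor gene PSMF1 stood at opposite ends. Limma's moderated test with Benjamini and Hochberg (BH) adjustment over all gene names called 1 of the 43 genes at an adjusted P-value under 0.05, PSMF1, which was higher in low RFI pigs. Over all gene names the same rule called 2.73%. By the criterion of the study, a P-value under 0.01 and a fold change (FC) above 1.1, 3 of the 43 genes passed (PSMF1, PSMB8 and PSMD1), beside 5.56% of all gene names. Thus neither share was far from the background. The median difference of the 43 genes was 0.047 on the log2 scale, and 35 of them were above 0, whereas over all gene names the median was 0.017 and 58.3% were above 0. By diet, 35 of the 43 genes were above 0 in pigs fed the HF diet, with a median of 0.082, and 21 of 43 in pigs fed the LF diet, with a median of -0.00093. Over all gene names these shares were 49.4% and 54.5%. The interaction of line and diet was above 0 for 34 of the 43 genes, beside 50.7% of all gene names, and it was not tested over the genes as a group.

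**Figure D1:**
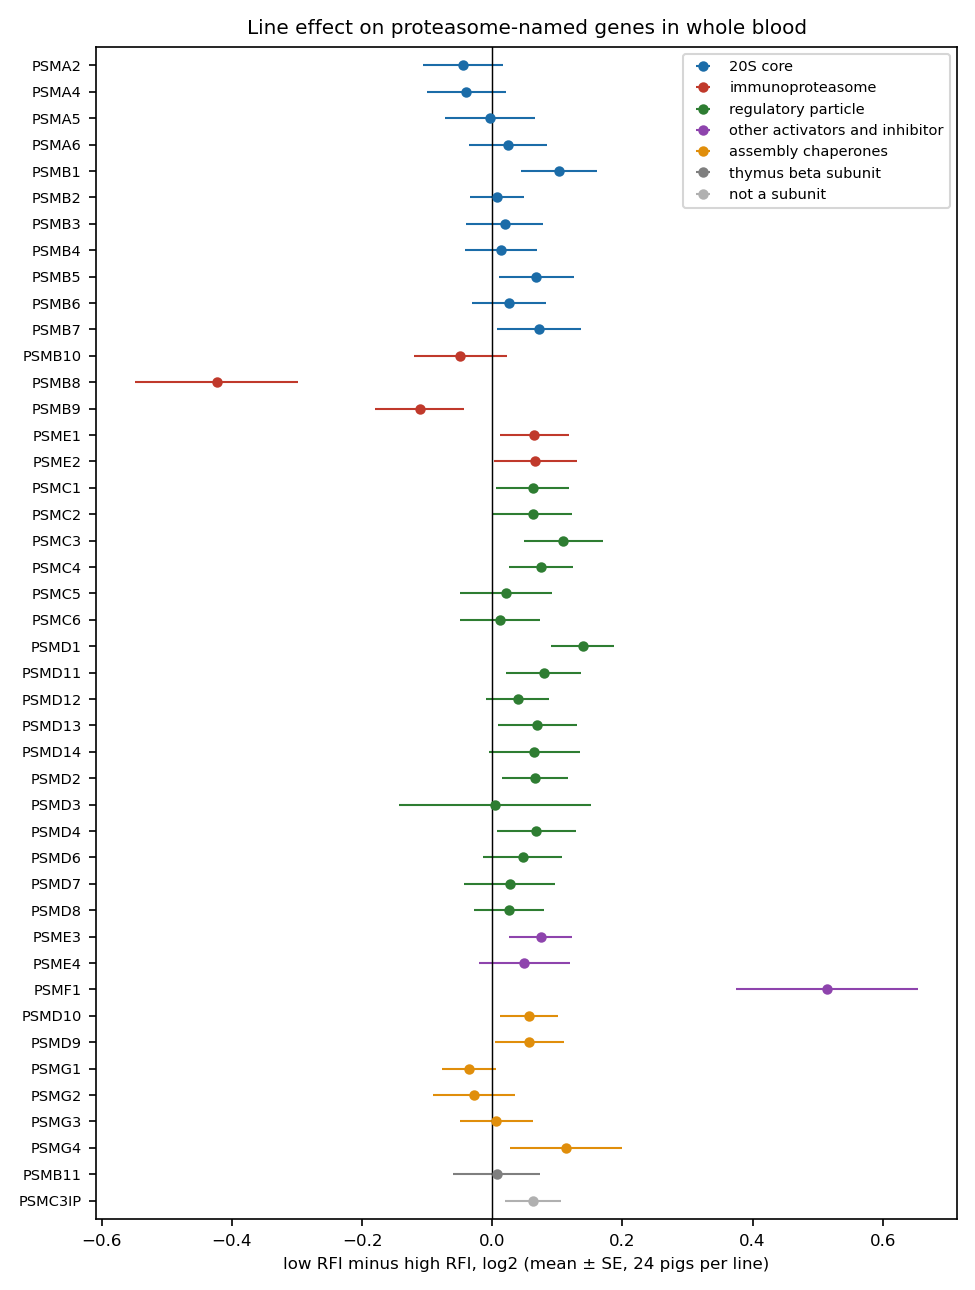
Difference between lines for the 44 genes, as low RFI minus high RFI on the log2 scale, with the standard error as a bar and 24 pigs per line. Most genes lie within 0.15 of 0, PSMB8 lies at -0.42 and PSMF1 at 0.51.

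Among the immunoproteasome genes, PSMB8 had the largest difference between lines. PSMB8 encodes LMP7, the inducible subunit with chymotrypsin-like activity. Its level in low RFI LF pigs ranged from 2.83 to 3.97 with a median of 3.06, and in low RFI HF pigs from 2.80 to 4.11 with a median of 3.04. In high RFI LF pigs it ranged from 2.83 to 4.37 with a median of 3.68, and in high RFI HF pigs from 2.96 to 4.43 with a median of 3.47. The 4 ranges overlapped, but 19 of 24 low RFI pigs were below the median of the high RFI pigs. The difference was -0.42 ± 0.12 (SE, 24 pigs per line), with a P-value of 0.0014 and an adjusted P-value of 0.052 by limma, just outside the threshold. It was -0.36 in pigs fed the HF diet and -0.48 in pigs fed the LF diet, and the interaction of line and diet had a P-value of 0.64.

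The 3 retained spots of PSMB8 gave similar differences. They were -0.45 for PSMB8-a, -0.40 for PSMB8-b and -0.42 for PSMB8-c, with adjusted P-values over all spots of 0.046, 0.091 and 0.035 by limma. A further spot named PSMB8 was well above background on 4 of 48 arrays only and was not retained by the study. Within slides, each with 4 pigs of either line, the difference in PSMB8 was below 0 on 6 of 6 slides and ranged from -0.99 to -0.18. With slide as a block, the adjusted P-value was 0.047, and with the replicate number as a block it was 0.020. Hence the call depended on the fit, while the direction did not in any fit that was made.

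**Figure D2:**
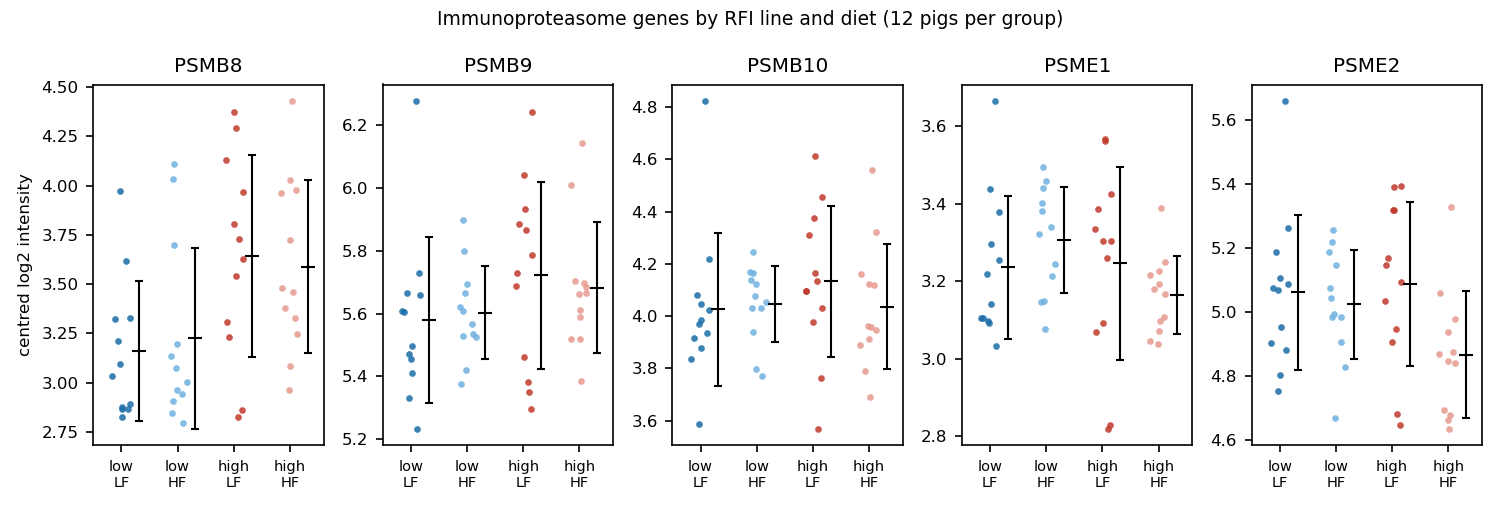
Centred log2 intensity of the 5 immunoproteasome genes in each pig by RFI line and diet, with the mean and SD of 12 pigs beside the points. The ranges of the groups overlap for all 5 genes. For PSMB8 and for PSMB9, 5 of 24 low RFI pigs are above the median of the high RFI pigs, and for PSMB10 7 of 24.

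The other inducible catalytic subunits had smaller differences that did not pass the test. PSMB9 (LMP2), which lies next to PSMB8 with only the peptide transporter gene TAP1 between them in the RefSeq gene order, ranged from 5.23 to 6.28 (median 5.59) in low RFI pigs. In high RFI pigs it ranged from 5.30 to 6.24 with a median of 5.69. Its difference was -0.11 ± 0.068 (SE), with an adjusted P-value of 0.64 by limma, although 19 of 24 low RFI pigs were below the median of the high RFI pigs. Within slides it was below 0 on 4 of 6 slides. PSMB10 (MECL-1) had medians of 4.03 in low RFI pigs and 4.10 in high RFI pigs, and a difference of -0.049 ± 0.072 (SE) with an adjusted P-value of 0.95.

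The PA28 activator genes PSME1 and PSME2, whose products form a ring on the end of the core, were on the other side of 0 over both diets. By diet, PSME1 differed by 0.14 with the HF diet and -0.011 with the LF diet, and PSME2 by 0.16 and -0.026. With the LF diet 0 of the 5 immunoproteasome genes were above 0, beside 54.5% of all gene names. On that diet 4 of 11 core genes and 1 of 6 assembly chaperones were above 0. PSME1 ranged from 3.03 to 3.67 in low RFI pigs and from 2.82 to 3.57 in high RFI pigs, with medians of 3.250 and 3.204. PSME2 ranged from 4.67 to 5.66 and from 4.64 to 5.40, with medians of 5.06 and 4.94. The differences were 0.065 ± 0.053 (SE) for PSME1 and 0.066 ± 0.064 (SE) for PSME2, with adjusted P-values of 0.82 and 0.88 by limma. Of the 5 immunoproteasome genes, 0 passed an adjusted P-value under 0.05 by limma, and 0 by an analysis of variance without moderation. Both were run on gene values here, whereas the study fitted its analysis of variance to single spots. Before adjustment, 1 of the 5 had a P-value under 0.05, PSMB8, beside 11.5% of all gene names. The median of the 5 differences was -0.049.

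The constitutive subunits that these genes replace had differences above 0, and none of these 3 passed the test. PSMB5, the counterpart of PSMB8, had medians of 0.92 in low RFI pigs and 0.88 in high RFI pigs and a difference of 0.068 ± 0.058 (SE). PSMB6, the counterpart of PSMB9, had a difference of 0.026 ± 0.057 (SE), and PSMB7, the counterpart of PSMB10, one of 0.072 ± 0.064 (SE). Their adjusted P-values were 0.83, 0.98 and 0.85 by limma. Within each pig, PSMB8 minus PSMB5 differed between lines by -0.49 ± 0.13 (SE) and was lower than the median of the high RFI pigs in 21 of 24 low RFI pigs. The same quantity was -0.14 ± 0.049 (SE) for PSMB9 minus PSMB6 and -0.12 ± 0.050 (SE) for PSMB10 minus PSMB7. These within-pig differences are given as descriptions, without a test.

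Across the 48 pigs, with the mean of each group removed and pigs permuted within groups, the immunoproteasome genes varied together to unequal degrees. Pearson's r was 0.86 for PSMB9 and PSME2 (Spearman's rho 0.80), 0.79 for PSMB9 and PSMB10 (rho 0.68) and 0.76 for PSME1 and PSME2 (rho 0.64). For the constitutive pair PSMB6 and PSMB7 it was 0.89 (rho 0.87). These 4 pairs had a permutation P-value of r of 1e-05, the smallest that 100000 permutations can give, and 1.5e-05 after BH adjustment over the 6 pairs computed. Pearson's r was 0.25 for PSMB8 and PSMB9 (rho 0.27, permutation P-values of 0.098 and 0.074, adjusted 0.12 and 0.089). It was 0.18 for PSMB8 and PSMB10 (rho 0.21, permutation P-values of 0.25 and 0.17, both unchanged by the adjustment). For rho the 4 other pairs had permutation P-values from 1e-05 to 3e-05, and 2e-05 to 4.5e-05 after adjustment. Without the 2 pigs farthest from the median of the first gene, r lay between 0.70 and 0.86 for the 4 correlated pairs and was 0.31 and 0.19 for the pairs with PSMB8. With slide also removed and pigs permuted within group and slide, a test added after seeing the data, r was 0.45 for PSMB8 and PSMB9 (rho 0.41), with permutation P-values of 0.0017 and 0.0090, or 0.0026 and 0.011 after adjustment. For PSMB8 and PSMB10 r was then 0.32 (rho 0.29), with permutation P-values of 0.029 and 0.070, both unchanged by the adjustment. The other 4 pairs had r between 0.78 and 0.94 and adjusted permutation P-values of r from 6e-05 to 0.0035, and of rho from 6e-05 to 0.0066. Each group had 2 pigs per slide, so that these permutations could only swap the 2 pigs of a group on a slide. What such pigs share stays in r and in its permuted values alike, so that these P-values do not rank the pairs by r. Hence the correlation of PSMB8 with PSMB9 passed or missed the test depending on the removal of slide and the permutation scheme together. All pairs share the arrays and their centring.

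The genes that supply peptides to MHC class I and that carry the interferon signal were described beside them. Of 23 listed genes 19 were measured, 0 passed an adjusted P-value under 0.05 by limma, and their median difference was -0.045. TAP1 differed by -0.025 and TAP2, on the other side of PSMB8, by 0.089. Of 20 genes of the interferon response list, 18 were measured, 0 passed and 15 were below 0, with a median of -0.19. The mean level of this list ranged from 1.79 to 3.64 in low RFI pigs and from 2.17 to 3.89 in high RFI pigs. Blood cell counts were not analysed here. The called counts of the marker lists that follow stand beside 2.73% of all gene names called and 58.3% above 0. Among the markers, the B cell genes MS4A1 (-0.36) and BLNK (-0.23) were lower in low RFI pigs, and of 6 measured B cell markers 3 were called lower and 0 were above 0 (median -0.21). The mean B cell level was 1.41 to 2.50 in low RFI pigs and 1.93 to 2.45 in high RFI pigs. The monocyte gene CD14 (-0.47) was also lower and was the 1 called of 6 measured monocyte markers, of which 2 were above 0 (median -0.076). The neutrophil gene CXCR2 (-0.42) was lower and was the 1 called of 8 neutrophil markers, of which 3 were above 0 (median -0.33). The T cell gene LCK (0.21) was higher in low RFI pigs, 1 called of 9 with 8 above 0 (median 0.16). The red cell gene SLC4A1 (0.26) was higher, 1 called of 15 with 14 above 0 (median 0.12). By limma 0 of 6 measured NK and cytotoxic markers and 0 of 5 platelet markers passed, with medians of 0.063 and -0.063. The part of these markers in the difference in PSMB8 was not tested.

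**Figure D3:**
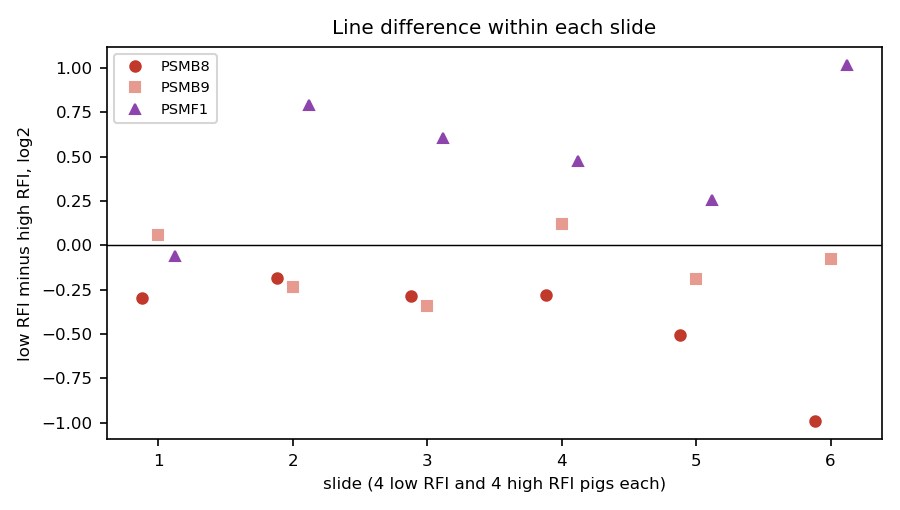
Difference between lines within each of the 6 slides, as the mean of 4 low RFI pigs minus the mean of 4 high RFI pigs on the log2 scale. PSMB8 lies below 0 on 6 slides, between -0.99 and -0.18, while PSMB9 and PSMF1 each have slides on either side of 0.

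Over both diets, the 20S core was nearly level between lines. Its 11 measured genes, 4 alpha subunits that form the outer rings and 7 constitutive beta subunits, differed by -0.045 to 0.10, with a median of 0.019. Of these 8 were above 0, and 0 passed an adjusted P-value under 0.05 by limma or by the analysis of variance. By diet, 10 of 11 were above 0 with the HF diet (median 0.055) and 4 of 11 with the LF diet (median -0.017). The shares of all gene names were 49.4% and 54.5%. The interaction was above 0 for 11 of 11, beside 50.7% of all gene names, and was not tested over these genes as a group. Before adjustment, 0 of the 11 had a P-value under 0.05, beside 11.5% of all gene names. PSMB4, a structural beta subunit read by 12 spots, differed by 0.014 ± 0.056 (SE), and its spots lay between -0.016 and 0.040. PSMB1 had the highest value of the core, 0.10 ± 0.058 (SE), with an adjusted P-value of 0.57. The alpha subunit PSMA3 had 1 spot, well above background on 48 of 48 arrays but not retained by the study. In the fit of all non-control spots it differed by -0.016 ± 0.049 (SE).

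PSMA4, an alpha subunit, showed how far spots of 1 gene can disagree. Its 3 probes share no run of 8 or more bases, and the first 30 bases of each are given for comparison.
PSMA4-a: ggcttttcatgctttatgtatatcgtggct
PSMA4-b: gagaaatgactctgaagtcagcacttgctt
PSMA4-c: gttagtaagctttctgctgaaaaagtggaa

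PSMA4-a ranged from 1.20 to 2.12 (median 1.86) in low RFI pigs, and from 1.59 to 3.01 in high RFI pigs with a median of 2.13. Its difference was -0.33 ± 0.079 (SE), with an adjusted P-value of 0.0093 by limma over all spots, and it was below 0 on 6 of 6 slides. PSMA4-b and PSMA4-c differed by 0.092 and 0.12, with adjusted P-values of 0.69 and 0.57. The gene value, the mean of the 3 spots, differed by -0.040 and described none of them.

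The regulatory particle had small differences, which over both diets were on the same side. Its 17 measured genes, the 6 ATPases PSMC1 to PSMC6 that unfold the substrate and 11 PSMD subunits of the base and lid, differed by 0.0047 to 0.14, with a median of 0.062. All 17 were above 0 with this scaling, and 16 of 17 were above 0 with the other 3 scalings of the intensities, beside 58.3% of all gene names. By diet, 14 of 17 were above 0 in pigs fed the HF diet and 12 of 17 in pigs fed the LF diet. By limma and by the analysis of variance 0 passed an adjusted P-value under 0.05, and before adjustment, 1 of the 17 had a P-value under 0.05, PSMD1, beside 11.5% of all gene names. PSMC3 had a difference of 0.11 ± 0.060 (SE) and PSMC4 one of 0.075 ± 0.050 (SE). PSMD14, the deubiquitinase of the lid, differed by 0.065 ± 0.070 (SE), and PSMD2, a base subunit that binds ubiquitin-like domains, by 0.066 ± 0.051 (SE). Genes of a complex measured in the same pigs are not independent readings, so that a shared sign is a description.

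PSMD1, the largest subunit of the base, passed the criterion of the study through 1 of its 8 spots. The stretch that 3 of its probes have in common, 21 bases, is in capitals.
PSMD1-a: tattaaaatCTCCAGATGGACCAGGACTTG
PSMD1-b: CTCCAGATGGACCAGGACTTGtttttcagc
PSMD1-c: aaatCTCCAGATGGACCAGGACTTGttttt

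PSMD1-a ranged from -0.26 to 0.60 (median 0.15) in low RFI pigs, and from -1.94 to 0.48 in high RFI pigs with a median of -0.49. Its values were thus spread widely in the high RFI line alone. The difference of this spot was 0.74 ± 0.14 (SE), with an adjusted P-value of 9.6e-04 by limma over all spots, and it was above 0 on 6 of 6 slides. PSMD1-b and PSMD1-c differed by 0.081 and 0.12, and the 7 spots other than PSMD1-a by -0.066 to 0.13, with 0 of them called. The gene value differed by 0.14 ± 0.049 (SE), with an adjusted P-value of 0.14, and it moved with the summary of the spots. With the brightest spot in place of the mean it was -0.066, and with the median of the spots 0.38 with an adjusted P-value of 0.0033. This 0.38 lies above the differences of the 7 other spots, so that it is not a reading apart from PSMD1-a. With the replicate number as a block the adjusted P-value was 0.0498.

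**Figure D4:**
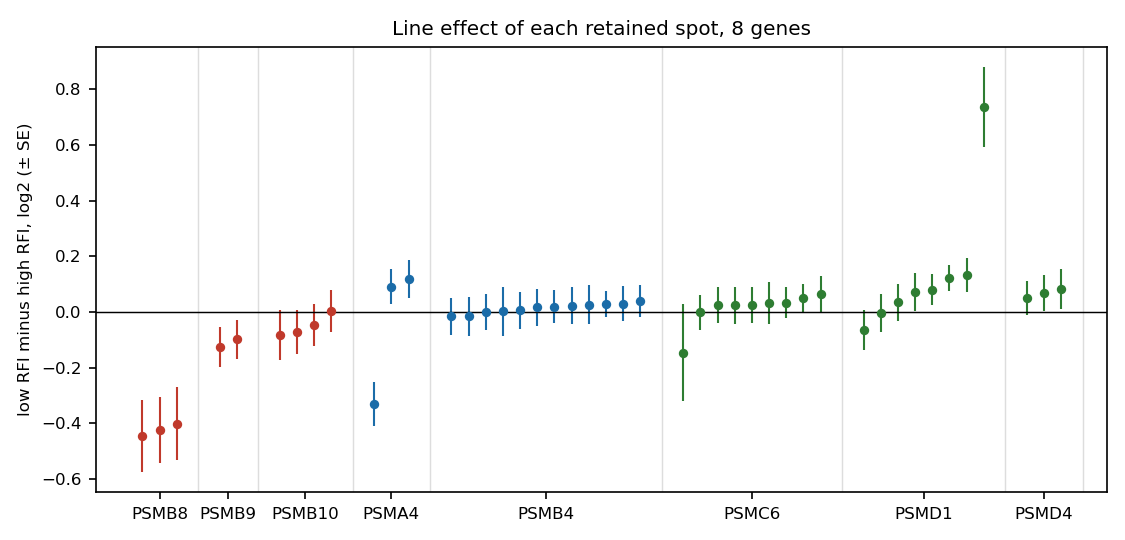
Difference between lines of each retained spot on the log2 scale, with the standard error as a bar, for 8 genes with 2 or more spots. The spots of PSMB8 and PSMB4 lie close together, whereas 1 spot of PSMA4 lies at -0.33 and 1 spot of PSMD1 at 0.74, apart from the others of their gene.

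Across the members, such disagreement was uncommon. Of 27 genes with 2 or more retained spots, 23 had a range of differences under 0.1, and the median range was 0.045. PSMA4 and PSMD1 were the 2 genes whose range was over 0.3. In all, 6 of the 108 spots passed the criterion of the study for line (5.78% of all retained spots), namely 3 of PSMB8, 1 of PSMA4, 1 of PSMD1 and 1 of PSMF1. At an adjusted P-value under 0.05 the count was 5 (2.77% of all retained spots). PSMD14 offered a view of the error between spots of an array, because the same 60-base probe is printed at 2 spots. Error between arrays is not part of it. The readings of this pair differed within an array by 0.045 on average with an SD of 0.18 over 48 arrays, and its differences between lines were 0.060 and 0.076.

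The ATPase gene PSMC6 had 9 retained spots and 1 reading far from the rest. A pair of its probes, PSMC6-a and PSMC6-b, share a run of 35 bases and part ways after it, and the last 20 shared bases are in capitals.
PSMC6-a: tttacTGTAAGGTTTTTGATGGCTGatgac
PSMC6-b: tttacTGTAAGGTTTTTGATGGCTGcatga

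At PSMC6-a, low RFI LF replicate 7 read -1.14, while the other 47 pigs lay between 2.39 and 3.29. At PSMC6-b the same pig read 3.26, close to the median of 3.32 of the other pigs, and it was not the lowest at any of the other 8 spots. The difference between lines at PSMC6-a was -0.15 with this pig and 0.023 without it. The gene value of PSMC6 differed by 0.012 ± 0.061 (SE).

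Of the genes that act on the assembled particle, PSMF1 differed most. PSMF1 encodes PI31, first described as an inhibitor of the core, and was read by a single dim spot, whose probe begins as follows.
PSMF1-a: aaggctaatctcttttttgccactaactta

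In low RFI pigs PSMF1 ranged from -2.28 to -0.10 with a median of -1.01, and in high RFI pigs from -2.40 to -0.82 with a median of -1.46. The ranges overlapped, and 18 of 24 low RFI pigs were above the median of the high RFI pigs. The difference was 0.51 ± 0.14 (SE), with a P-value of 5.8e-04 and an adjusted P-value of 0.028 by limma. It was 0.45 in pigs fed the HF diet and 0.58 in pigs fed the LF diet, and it was above 0 on 5 of 6 slides, with a range from -0.057 to 1.02. No other spot of PSMF1 was on the array. Its probe shares no run of 16 bases, on either strand, with a spot of another name, whereas 43 of the 108 retained spots do. Which part of the transcript the probes of PSMF1, PSMA4 and PSMD1 read was not checked, and gene names are those of the array. PSME3 and PSME4, which encode the activators PA28 gamma and PA200, differed by 0.074 ± 0.049 (SE) and 0.049 ± 0.070 (SE) and did not pass the test.

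The 6 measured assembly chaperones differed by -0.036 to 0.11, with a median of 0.031, and 0 passed an adjusted P-value under 0.05 by limma or by the analysis of variance. Before adjustment, 0 of the 6 had a P-value under 0.05, beside 11.5% of all gene names. PSMG1 to PSMG4 help to build the core, and PSMD9 and PSMD10 the base. PSMB11, the beta subunit of the thymus, differed by 0.0066 ± 0.067 (SE), and PSMC3IP by 0.063 ± 0.043 (SE). A further chaperone of the base, PSMD5, had 1 spot that was well above background on 1 of 48 arrays and was not retained by the study.

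The partners of the proteasome, which make, carry and remove ubiquitin or bind the particle, were described from a list of 34 genes, of which 26 were measured. Their median difference between lines was 0.045, and 17 of the 26 were above 0. At an adjusted P-value under 0.05 by limma, 1 of the 26 was lower in low RFI pigs and 0 were higher, beside 2.73% of all gene names called and 58.3% above 0.

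For the diet, 0 of the 43 genes passed the criterion of the study by limma, beside 0.208% of all gene names, and 0 passed by the analysis of variance. Before adjustment, 1 of the 43 had a P-value under 0.05, PSME2, beside 1.61% of all gene names. PSME2 ranged from 4.64 to 5.33 in pigs fed the HF diet with a median of 4.96, and from 4.65 to 5.66 in pigs fed the LF diet with a median of 5.08. Its difference, HF minus LF, was -0.13 ± 0.064 (SE), with a P-value of 0.049 and an adjusted P-value of 0.9999 by limma. The P-value was 0.065 with the background-corrected signal centred on the median, 0.062 with normexp and quantile normalization, 0.051 with all non-control spots, 0.052 with a trended prior and 0.054 without high RFI HF replicate 1. In the other planned fits it was under 0.05, from 0.024 with the replicate number as a block to 0.0498 with the median of the spots. By line, the difference was -0.037 ± 0.091 (SE) in low RFI pigs (P-value of 0.68 by limma) and -0.22 ± 0.091 (SE) in high RFI pigs (P-value of 0.018, adjusted 0.83). The interaction of line and diet had a P-value of 0.16. Over both lines the difference was below 0 on 6 of 6 slides, and 19 of 24 HF pigs were below the median of the LF pigs. PSMA2 (-0.078, P-value of 0.22) and PSME3 (-0.048, P-value of 0.33) had the next lowest P-values. The 43 differences between diets had a median of -0.020 and 12 were above 0, whereas 56% of all gene names were above 0.

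For the interaction of line and diet, 1 of the 43 genes had a P-value under 0.01, PSMD4, beside 0.223% of all gene names. PSMD4 encodes a ubiquitin receptor of the base, and its probes are given because its 3 spots are compared. Capitals mark 10 bases that PSMD4-b and PSMD4-c have in common.
PSMD4-a: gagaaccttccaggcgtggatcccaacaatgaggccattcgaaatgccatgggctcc
PSMD4-b: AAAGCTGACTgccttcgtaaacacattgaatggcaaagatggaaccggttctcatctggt
PSMD4-c: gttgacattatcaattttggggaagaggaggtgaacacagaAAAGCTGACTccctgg

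In pigs fed the LF diet, PSMD4 ranged from 1.53 to 1.99 in the low RFI line with a median of 1.66, and from 1.22 to 1.88 in the high RFI line with a median of 1.45. In pigs fed the HF diet, it ranged from 1.08 to 1.96 in the low RFI line with a median of 1.49, and from 1.19 to 1.99 in the high RFI line with a median of 1.64. All 12 low RFI LF pigs were above the median of the high RFI LF pigs, while 4 of 12 low RFI HF pigs were above that of the high RFI HF pigs. The difference between lines was 0.24 ± 0.086 (SE) with the LF diet and -0.11 ± 0.086 (SE) with the HF diet. The interaction was -0.35 ± 0.12 (SE), with a P-value of 0.0067 and an adjusted P-value of 0.89 by limma, so that it did not pass after adjustment. The 3 spots gave -0.29, -0.42 and -0.33, and the interaction was below 0 on 5 of 6 slides. PSMD9 (0.20, P-value of 0.065) and PSMC6 (0.22, P-value of 0.083) had the next lowest P-values and were on the other side of 0.

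**Figure D5:**
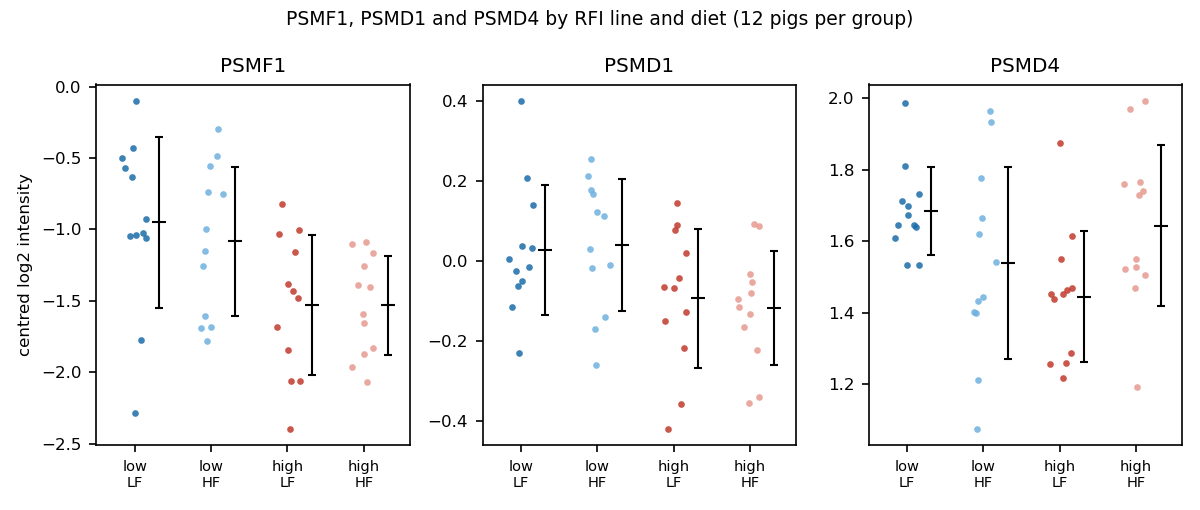
Centred log2 intensity of PSMF1, PSMD1 and PSMD4 in each pig by RFI line and diet, with the mean and SD of 12 pigs beside the points. PSMF1 and PSMD1 are higher in most low RFI pigs on either diet, and the difference in PSMD4 is 0.24 with the LF diet and -0.11 with the HF diet.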

How the data were processed

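Blood RNA of 48 pigs was measured on 1-colour arrays, and the members and gene lists were chosen with earlier results of these data known. Spot intensity values in the files deposited by the authors were written by Agilent Feature Extraction 10.7.3.1. The authors filtered spots for quality and deposited centred log2 intensities of the 37113 that were left, made in R 3.0.2 per the labels. On 47 arrays the deposited numbers could be recomputed as log2 median pixel intensities, without background subtraction, less the median of the array. For high RFI HF replicate 1 the deposited column holds 1 repeated value at 37090 of 37113 spots, and it was rebuilt from the scanner file by this formula. The median intensity over local background was 5.91 to 16.0 per array, and the number of arrays limits the precision.

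Retained spots of the same name, in capitals, were averaged per gene. Effects of line, diet and line by diet were fitted over all gene names, and separately over all retained spots, with limma 3.58.1 in R 4.3.3, with BH adjustment over the whole table. Nothing in the labels gives a litter or pen, so that each pig was taken as 1 replicate. Genes named are the 5 immunoproteasome genes, their counterparts, PSMA3, members called for line, the 3 with the lowest P-values for diet and interaction, and list genes at an adjusted P-value under 0.05, some of which are not reported here. Other genes and spots were named after their values were seen. Probes without a recognised coding frame were cut to 30 bases, and the others to whole triplets. The triplets of PSMB8-b and PSMD4-b, counted from their first base, are not the codons that PSMB8-a and PSMD4-c show. The fit was tested on simulated data in which 200 of 26924 genes were changed. Adjusted P-values under 0.05 were found for 38% of line changes of 0.25 and 79.5% of 0.5, and 0% of interactions of 0.25 and 25.5% of 0.5. The simulated noise was independent between genes, and in the data 734 gene names were called for line, so that recovery there can differ. No genome of the array's annotation was used, so that no coordinates are given, and gene order comes from a RefSeq table of Sscrofa11.1. Alternatives were the analysis of variance, other background corrections and scalings, other spot filters and summaries, and slide or replicate number as a block. Other steps used Python 3.11.15.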

Additional observations from a re-analysis of the deposited data

Results flagged for a closer look

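PSMD4 is listed because its interaction of line and diet, -0.35 on the log2 scale, had an unadjusted P-value of 0.0067 by limma. It did not pass after adjustment (adjusted P-value of 0.89), so that a difference between diets is not established. All 12 low RFI LF pigs were above the median of the high RFI LF pigs, and 4 of 12 low RFI HF pigs were above that of the high RFI HF pigs. The P-value was 0.011 and 0.010 with the background-corrected signal centred on the median or scaled to the 75th percentile, and 0.024 with the brightest spot.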

How the results depend on the processing

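The count of proteasome genes called for line, 1, was 2 with the background-corrected signal centred on the median or scaled to the 75th percentile, with normexp and quantile normalization, with all non-control spots and with slide as a block, and 3 with the replicate block and with the median of the spots. The gene added was PSMB8, and PSMD1 where there were 3, a gene with 1 called spot of 8. The count of immunoproteasome genes called, 0, was then 1 in these 7 fits. The adjusted P-value of PSMB8 lay between 0.020 and 0.098 in the planned fits, and its difference between -0.44 and -0.33. Taking the values of high RFI HF replicate 1 as deposited, a column of 1 repeated value at 37090 of 37113 spots (chosen after seeing the data), the count for line was 0, PSMB8 had an adjusted P-value of 0.34 and PSMF1 of 0.82, the median of all gene names moved to -0.11 and 23 of 43 members were above 0. Without that pig, also chosen later, the adjusted P-values were 0.073 for PSMB8 and 0.024 for PSMF1. The interaction count, 1, was 0 with the background-corrected signal centred on the median or scaled to the 75th percentile, with the brightest spot, and with the column as deposited, where the P-value of PSMD4 was 0.011, 0.010, 0.024 and 0.012. Same-numbered pigs did not deviate together in all cases (r from -0.63 to 0.73 over 72 pairs, 43 of them over 0.1, and 22 of 48 pigs closest to their own number), so that the replicate block is a fit by number only. The counts for spots and for diet stayed within 1.5 times in all fits. The cause of these shifts was not tested. Dim spots such as that of PSMF1 lie nearest to the background.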
